A study of Mus musculus with 10 samples.

Results

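Hippocampal dissections rich in choroid plexus transcripts were compared with dissections that held less of them. The arrays were chosen by their Folr1 and Gabra6 values, so the division is not one of the study's groups. An array was called high where the log2 signal of Folr1, the folate receptor of choroid plexus epithelium, was above 7. It was called low where Folr1 was below 7 and Gabra6, a GABA receptor subunit of cerebellar granule cells, was below 8. Of the 10 arrays of the series, 3 were high (DU6 replicates 1 and 5 and FztDU replicate 5) and 6 were low (DU6 replicates 3 and 4 and FztDU replicates 1 to 4). DU6 replicate 2, the only array with Gabra6 above 8, was left out of the comparison. DU6 mice belong to an outbred line selected for high body mass, and FztDU mice to the unselected outbred line that served as their control. Each array held the RNA of the entire hippocampus of 1 male mouse, 5 mice per line, killed at 21 to 22 weeks of age according to the sample labels. Both lines are outbred, so the mice of a line are not genetically identical, and the labels do not record how the dissections differed. The study measured these arrays to look for inflammatory signatures in the obese line. On the array each transcript cluster, the set of probes for one gene or a near-identical group, has 1 signal on a log2 scale.

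The choroid plexus is a vascular fold lined by a single layer of epithelium that projects into the brain ventricles and secretes cerebrospinal fluid. Its epithelium carries ions and water from blood to fluid, moves folate, iron, copper, sulfate and sugars across the barrier, and releases carrier proteins and growth factors. The plexus of the lateral ventricle lies along the fimbria of the hippocampus, and that of the third ventricle lies under the fornix near the thalamus and habenula.

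Folr1 lies on chromosome 7 from 101858331 to 101870788 (mm10, minus strand). It had 8.44, 8.36 and 7.53 on the high arrays DU6 1, DU6 5 and FztDU 5, whereas the 6 low arrays had a lowest value of 3.59, a median of 4.27 and a highest value of 5.05. The member closest to the threshold from above was thus FztDU 5 at 7.53, and the closest from below was FztDU 2 at 5.05. The array left out, DU6 2, had the lowest Folr1 of the series at 3.09. Its Gabra6 was 11.11, against 2.18 to 2.72 on the other 9 arrays. These values made the classes and are given as a description.

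The other 3 epithelial markers were read on the same arrays. Because the classes were drawn on the signal of these dissections, all differences between high and low arrays below are descriptions without a test, given as a log2 difference adjusted for mouse line. Kcnj13 encodes the inwardly rectifying potassium channel Kir7.1 of the apical membrane (chromosome 1, 87386284 to 87394729). It had 10.56, 10.50 and 9.94 on the high arrays DU6 1, DU6 5 and FztDU 5, against a lowest value of 5.25, a median of 5.94 and a highest value of 7.48 on the low arrays. The difference of 4.39, or 21.0-fold, was the largest measured for any transcript cluster on the array. Clic6, of the chloride intracellular channel family (chromosome 16, 92485736 to 92541243), had 9.60, 9.41 and 9.15 on the high arrays and 5.69, 5.90 and 6.68 (lowest, median, highest) on the low arrays. Transthyretin, Ttr (chromosome 18, 20665250 to 20674326), carries thyroxine and retinol-binding protein in cerebrospinal fluid. Its signal was 12.35, 12.27 and 12.30 on the high arrays, near the highest log2 value of any cluster on any array (12.79), and 8.01, 8.62 and 10.88 on the low arrays. The classes did not overlap for any of the 4 markers, and the differences of Folr1 and Clic6 were 3.75 and 3.37. The measured difference of Ttr was 3.44, and whether its signal is capped near the top of the scale was not tested.

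Within the lines, the high arrays exceeded the low arrays in Kcnj13 by 5.04 in DU6 mice and by 3.59 in FztDU mice. FztDU 5 is the only high array of its line, so its excess has no replicate there.

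The low arrays were not all at one level of choroid plexus transcripts. FztDU 1 and FztDU 2 had Ttr at 10.13 and 10.88, whereas the other low arrays had 8.01 to 8.62. FztDU 2 also had the highest low value of Kcnj13, Folr1 and Clic6 (7.48, 5.05 and 6.68). Divided at the widest gap of Ttr, these arrays would join the high ones and make 5, while the widest gaps of Kcnj13 and Clic6 gave the same 3 high arrays as Folr1. The arrays are therefore called high and low here and not rich and clean. In bulk tissue a larger piece of choroid plexus and more transcript per epithelial cell cannot be told apart.

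**Figure D1:**
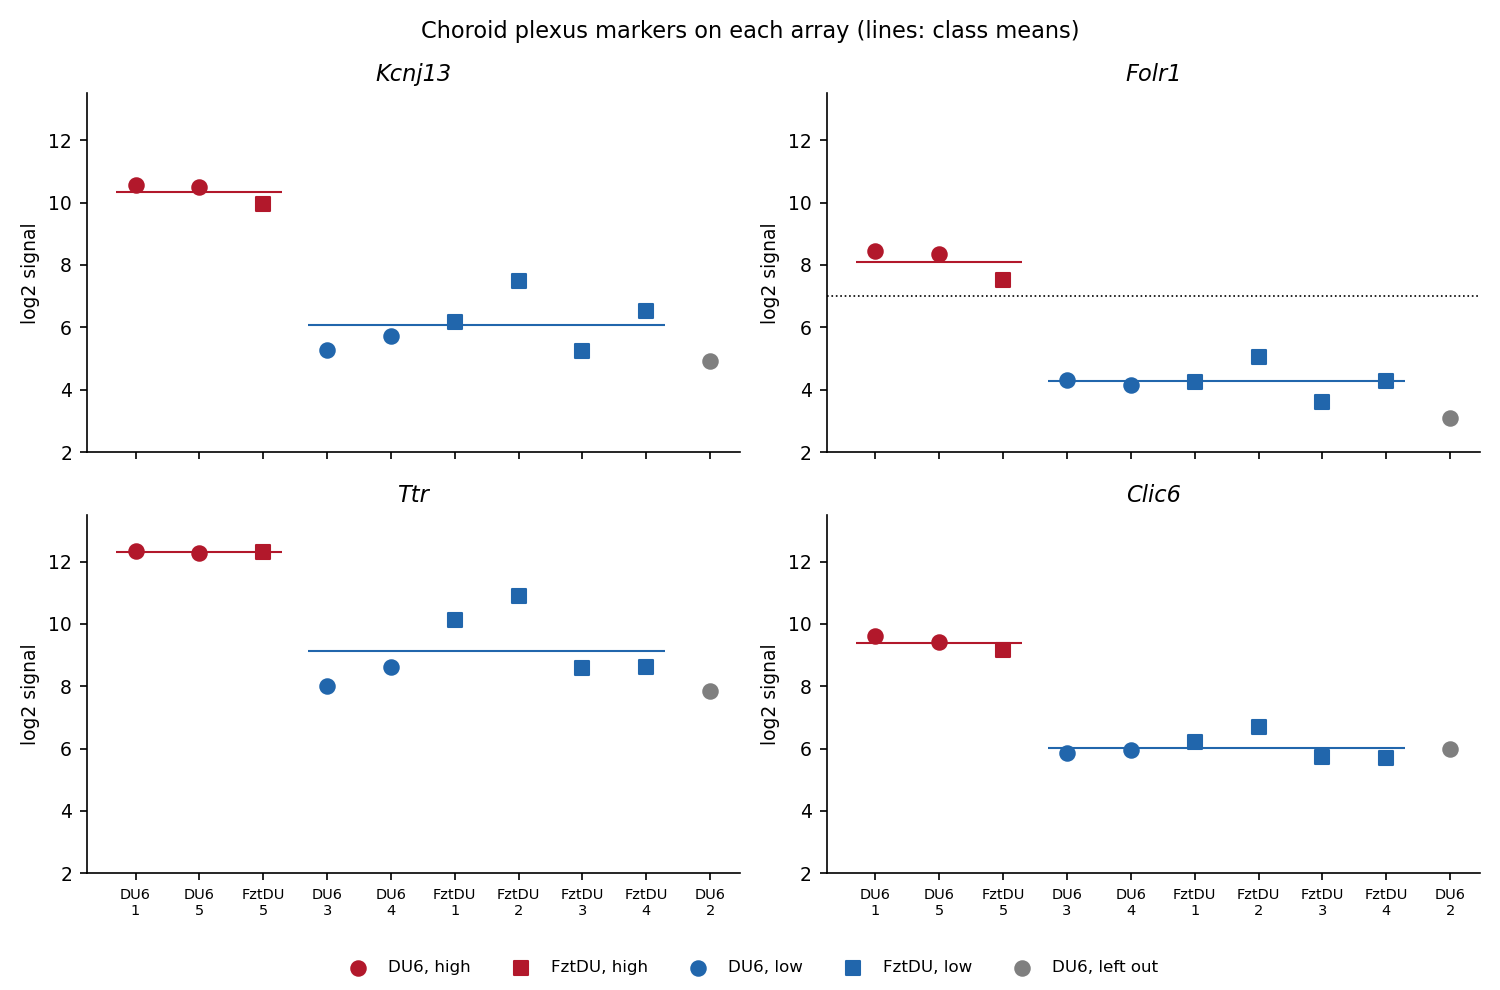
Log2 signal of Kcnj13, Folr1, Ttr and Clic6 (vertical axes) on each of the 10 arrays (horizontal axis: line and replicate number), in red for high, blue for low and grey for the array left out, with circles for DU6 and squares for FztDU. Horizontal lines are class means and the dotted line is the Folr1 threshold of 7; the lowest high array lies 2.46, 2.48, 1.39 and 2.47 above the highest low array for Kcnj13, Folr1, Ttr and Clic6, and FztDU 1 and FztDU 2 stand out among the low arrays for Ttr.

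Clusters that separated the classes were selected for that, so their common movement over the arrays is built in, and a shared regulator was not tested. The promoters of 3 of them are shown, from RefSeq on GRCm38.p6. Each runs from 250 bases before to 50 bases after the transcription start, 5′ to 3′ on the strand of the gene. Otx2, the homeobox factor of choroid plexus epithelium, was itself among these clusters, and it is known to bind the core TAATCC. Capitals mark that core or its reverse complement GGATTA. The Kcnj13 window lies at chr1:87394680-87394979 on the minus strand and holds no match. The first Ace window and the third Otx2 window hold 1 match each. The second Ace window and the other Otx2 windows, not printed, hold none.

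Kcnj13: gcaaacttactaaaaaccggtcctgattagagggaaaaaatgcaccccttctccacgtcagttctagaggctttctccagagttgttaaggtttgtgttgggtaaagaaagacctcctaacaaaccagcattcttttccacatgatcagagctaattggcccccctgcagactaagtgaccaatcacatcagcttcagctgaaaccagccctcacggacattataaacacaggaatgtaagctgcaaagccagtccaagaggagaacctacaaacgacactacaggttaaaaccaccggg
Ace: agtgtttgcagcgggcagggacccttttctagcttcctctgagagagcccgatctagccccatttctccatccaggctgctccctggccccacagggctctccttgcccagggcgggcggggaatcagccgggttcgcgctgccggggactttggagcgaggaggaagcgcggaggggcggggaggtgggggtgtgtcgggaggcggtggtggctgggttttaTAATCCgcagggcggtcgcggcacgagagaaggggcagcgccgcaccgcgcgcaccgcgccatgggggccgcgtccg
Otx2: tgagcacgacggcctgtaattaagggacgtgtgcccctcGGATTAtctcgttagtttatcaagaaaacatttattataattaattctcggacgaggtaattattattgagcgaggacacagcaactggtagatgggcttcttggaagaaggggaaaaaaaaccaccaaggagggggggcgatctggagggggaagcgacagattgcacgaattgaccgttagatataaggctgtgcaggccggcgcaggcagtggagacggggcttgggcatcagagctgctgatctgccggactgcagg

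Ace lies on the plus strand at chr11:105967698-105967997 and Otx2 on the minus strand at chr14:48665060-48665359. Of the clusters that passed the criterion described next, 72 genes matched a RefSeq promoter by symbol, with 104 windows. The core was found on either strand in 8 of these windows (7.69%), those of Abca4, Ace, Igf2, Otx2, Pla2g5, Rbm47, Steap2 and Vat1l. Of all 32851 promoter windows of the same length, 2320 held it (7.06%). Counted by gene, 8 of the 72 held it in a window (11.1%), against 2199 of all 27025 genes (8.14%). The shares by window lie close together and those by gene less so, and neither difference was tested. A match describes only the letters of the window.

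Over the whole array, 92 of 22206 clusters were more than 1 log2 unit higher on the high arrays with no overlap between the classes (0.414% of all clusters), called past the fold hereafter, and 0 were as much lower (0.00%). The median difference of all clusters was -0.02, a value that the normalization of the arrays keeps near 0. Of the 92 clusters, 22 differed by over 2 and 8 by over 3, and the median among them was 1.43. Without regard to size, 493 clusters were higher on every high array than on any low array (2.22%) and 355 were lower (1.60%). At a difference over 0.5 the counts were 248 higher (1.12%) and 24 lower (0.108%). The difference was thus one-sided: large excesses on the high arrays had no counterpart of like size on the low arrays. With the 5 high arrays that the widest gap of Ttr gives, 10 clusters were past the fold. With the Folr1 classes the cluster nearest to the threshold from inside was Spef2, a sperm flagellar protein gene, at 1.01, and the nearest outside it without overlap was Dab2, an endocytic adaptor gene, at 0.98.

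**Figure D2:**
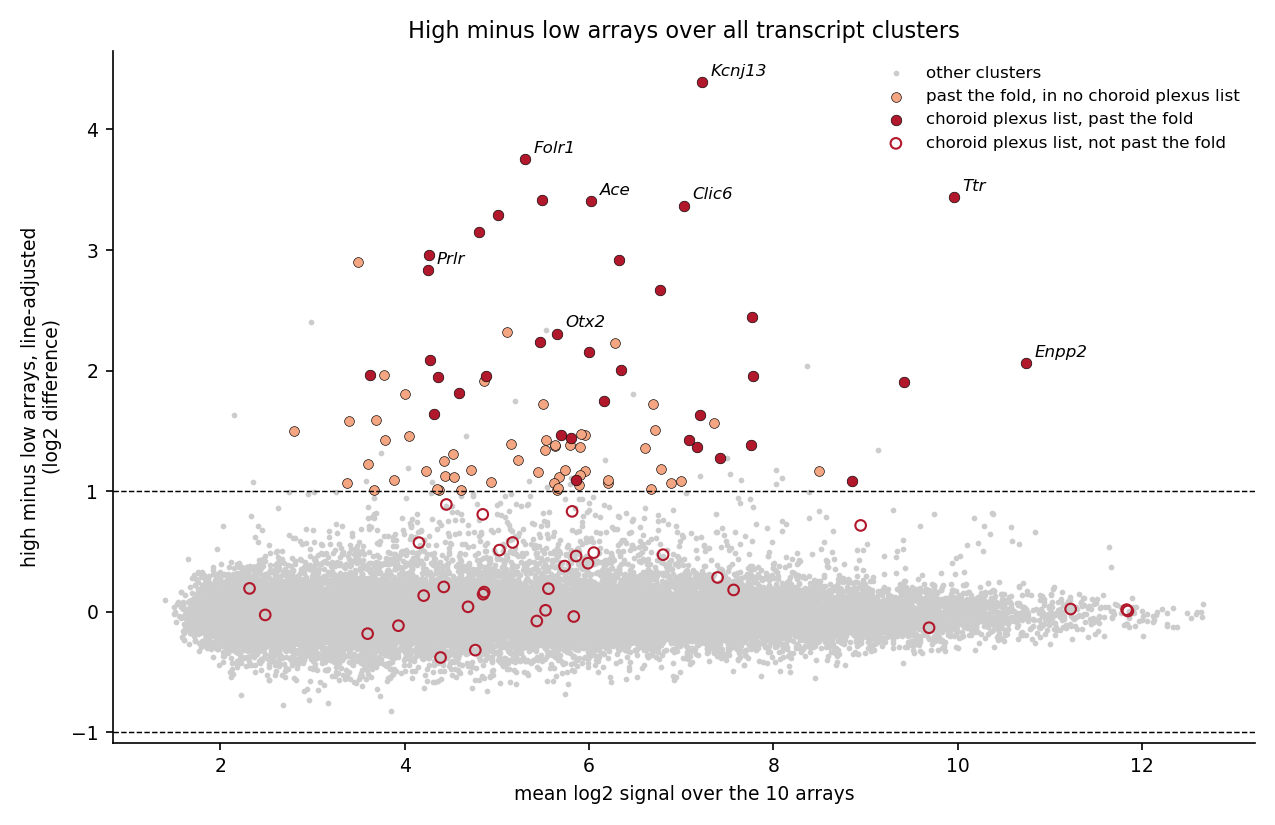
Line-adjusted log2 difference of the high minus the low arrays (vertical axis) against the mean log2 signal over the 10 arrays (horizontal axis) for all 22206 transcript clusters, with members of the choroid plexus lists in red and dashed lines at 1 and -1. The 92 clusters past the fold all lie above 0, led by Kcnj13 at 4.39, and none lies below the lower line.

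To describe what these clusters share, 71 symbols of genes with known roles in choroid plexus were grouped into 8 lists. Of these symbols, 69 had a transcript cluster of their own. Ecrg4 and 1500015O10Rik are symbols of the same gene, and only the latter had a cluster. Past the fold were 36 of the 69, against 0.414% of all clusters, with a median difference of 1.09 over the lists, against -0.02 over all clusters. The lists were drawn up with results of these arrays known, and Folr1 among their members made the classes together with Gabra6. Of the 33 members that were not past the fold, 26 differed by less than 0.5 either way. Genes that other hippocampal cells also use passed about as often (9 of 17, median 1.08) as the others (27 of 52, median 1.24).

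Ion and water transport was represented by 10 genes, 6 of them past the fold. Kcne2, a potassium channel beta subunit of the apical membrane, had 7.64, 7.54 and 7.17 on the high arrays and 3.33 to 5.08 on the low arrays, a difference of 3.29. The water channel Aqp1 had 7.23, 6.97 and 6.96 on the high arrays against 4.32 to 5.06 on the low arrays. Its classes stood 1.90 apart at the closest pair of arrays. Trpv4, a cation channel that opens on cell swelling, differed by 1.64, the carbonic anhydrase gene Car12 by 1.38, the copper importer gene Slc31a1 by 1.37 and the sodium bicarbonate cotransporter gene Slc4a5 by 1.09. Slc12a2, the sodium, potassium and chloride cotransporter NKCC1, had the same 9.40 on all 3 high arrays and 8.44 to 8.80 on the low arrays, a difference of 0.72 that stayed under the fold. Atp1b1, a sodium pump subunit that neurons also express strongly, had 11.78 to 11.89 on the high arrays and 11.77 to 11.91 on the low arrays.

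Among 11 carriers of nutrients and metals, 3 were past the fold. Steap1, of a family of metalloreductases, had 6.89, 6.40 and 6.09 on the high arrays against 3.09, 3.44 and 3.83 on the low arrays, a difference of 2.96. The sulfate transporter gene Slc13a4 had 7.61, 7.37 and 7.24 on the high arrays. On the low arrays it had 4.79 to 6.37, with FztDU 4 the highest. Slc2a12, a glucose transporter gene, had 6.51, 5.91 and 6.29 on the high arrays and 4.06 to 4.61 on the low arrays. The organic anion transporter gene Slc22a8 differed by only 0.47 with overlap, and Slc16a8, Slco1a5, Slc5a5 and Slc28a3 lay between -0.03 and 0.19. Slc16a8 and Slco1a5 had values under 3 on all 10 arrays.

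Secreted proteins formed the list with 7 of 13 clusters past the fold. The cluster named 1500015O10Rik, now Ecrg4 (augurin) in RefSeq, had 8.51, 7.74 and 7.52 on the high arrays and 3.73, 4.51 and 5.09 (lowest, median, highest) on the low arrays. Coagulation factor V, F5, had 7.27, 6.49 and 7.19 on the high arrays and 3.66, 3.78 and 4.37 on the low arrays, a difference of 3.15. Klotho, Kl, a cofactor of FGF23 that is shed into cerebrospinal fluid, had 9.82, 9.48 and 9.36 on the high arrays and 6.68 to 7.56 on the low arrays. Autotaxin, Enpp2, which makes lysophosphatidic acid, was among the strongest signals at 12.32, 12.31 and 12.09 on the high arrays and 9.92 to 10.72 on the low arrays. Oligodendrocytes also express this gene. The BMP and Wnt antagonist gene Sostdc1 differed by 2.01, Igfbp2 by 1.95 and Igf2 by 1.90. Igf2, a growth factor that choroid plexus releases into cerebrospinal fluid, had 10.72, 10.93 and 10.51 on the high arrays and 8.61 to 9.40 on the low arrays. Cystatin C (Cst3) and clusterin (Clu), which astrocytes also secrete, differed by 0.02 each.

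Of 6 receptor genes, 3 were past the fold. The prolactin receptor gene Prlr had 6.49, 5.95 and 6.30 on the high arrays and 2.82, 3.62 and 4.19 on the low arrays, a difference of 2.83. The leptin receptor gene Lepr had 4.94, 4.42 and 5.10 on the high arrays and 2.19 to 4.01 on the low arrays, and its classes stood only 0.41 apart at the closest pair. Htr2c, the serotonin receptor that choroid plexus shares with neurons, had 8.17, 8.72 and 8.19 on the high arrays and 6.21 to 7.66 on the low arrays. The receptors Lrp2 and Tfr2 were not past the fold, at -0.12 and -0.32.

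Of 9 genes of epithelial junctions and keratins, 3 were past the fold. The tight junction genes Cldn2 and Cldn1 differed by 1.95 and 1.82, and Spint2, a membrane protease inhibitor gene, by 1.42. Cldn2 had 5.79, 5.68 and 5.64 on the high arrays and 3.24 to 4.21 on the low arrays. The classes of Cldn1 stood only 0.11 apart, since FztDU 2 reached 5.19 and DU6 5 had 5.30. The keratin genes Krt18 and Krt8 did not overlap but differed by 0.89 and 0.51, and Ezr, Cdh1, Cldn3 and Epcam lay between -0.18 and 0.18.

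Otx2 was the only 1 of 6 transcription factor genes past the fold. It had 7.16, 7.27 and 7.01 on the high arrays and 4.61, 4.82 and 5.08 on the low arrays, a difference of 2.31. DU6 2, the array left out, had 6.09, between the classes. Msx1, Lmx1a, Rfx3, Gmnc and Mcidas, the last of which directs multiciliated cells, differed by -0.38 to 0.19.

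The remaining list of 10 epithelial genes had 9 past the fold. Ace, the angiotensin-converting enzyme, had 8.68, 8.27 and 8.02 on the high arrays and 4.41, 4.89 and 5.84 on the low arrays, a difference of 3.40. Sulf1, a heparan sulfate endosulfatase, differed by 2.92 and Lbp, which binds bacterial lipopolysaccharide, by 2.67. Lbp had 8.99, 8.97 and 8.21 on the high arrays and 5.28 to 6.64 on the low arrays. Calml4, Tmem72, Vat1l, Perp, Rdh5 and Cab39l differed by 1.08 to 2.09, and Cox8b by 0.57 without overlap.

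Motile cilia, which the ependyma that lines the ventricles carries in large numbers, gave a weaker signal. Of 14 cilia genes, 2 were past the fold (Cfap126 at 1.47 and Tekt1 at 1.09), and the list median was 0.32. Cfap126 had 7.40, 7.12 and 6.58 on the high arrays and 4.86, 5.53 and 6.23 on the low arrays. FztDU 4 had the highest list mean of the low arrays, 0.44 above the mean of the low arrays, which lies inside the range of 0.35 to 0.58 of the high arrays. Outside the list, the cilia or flagella genes Drc7, Cfap43 and Spef2 were past the fold at 2.32, 1.17 and 1.01.

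Altogether 36 of the 92 clusters past the fold were in the choroid plexus lists, 4 were in another list and 52 were in none. The largest of the 52 was Tc2n, a C2 domain protein gene, with 6.44, 4.46 and 5.40 on the high arrays and 1.88 to 3.58 on the low arrays. The next were Drc7, the synaptotagmin gene Syt9 at 2.22 and Sptlc3, a serine palmitoyltransferase subunit gene, at 1.96. Syt9 had 7.77 on the array left out, above all 3 high arrays. Also among the 52 were ceruloplasmin (Cp, 1.08), the paraoxonase gene Pon3 (1.72), the sphingomyelin synthase gene Sgms2 (1.42), the periostin gene Postn (1.80), the membrane protease gene Fap (1.59), the fibulin gene Fbln5 (1.18) and the collagen gene Col18a1 (1.18). Cd59a at 1.57 and Cd59b at 1.34 are paralogous complement inhibitor genes, and whether their probes share signal was not tested. Ins2, the insulin gene next to Igf2, had 6.45, 6.94 and 5.95 on the high arrays and 5.0 to 5.67 on the low arrays. Of the 92 clusters 8 were annotated as solute carriers, among them the monocarboxylate transporter family members Slc16a4, Slc16a6, Slc16a9 and Slc16a12. That is 8.70% of the 92 clusters, and 1.76% of all clusters carry that annotation. The authors' table called 90 of the 92 expressed in both lines, and the share of all clusters so called was not counted.

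**Figure D3:**
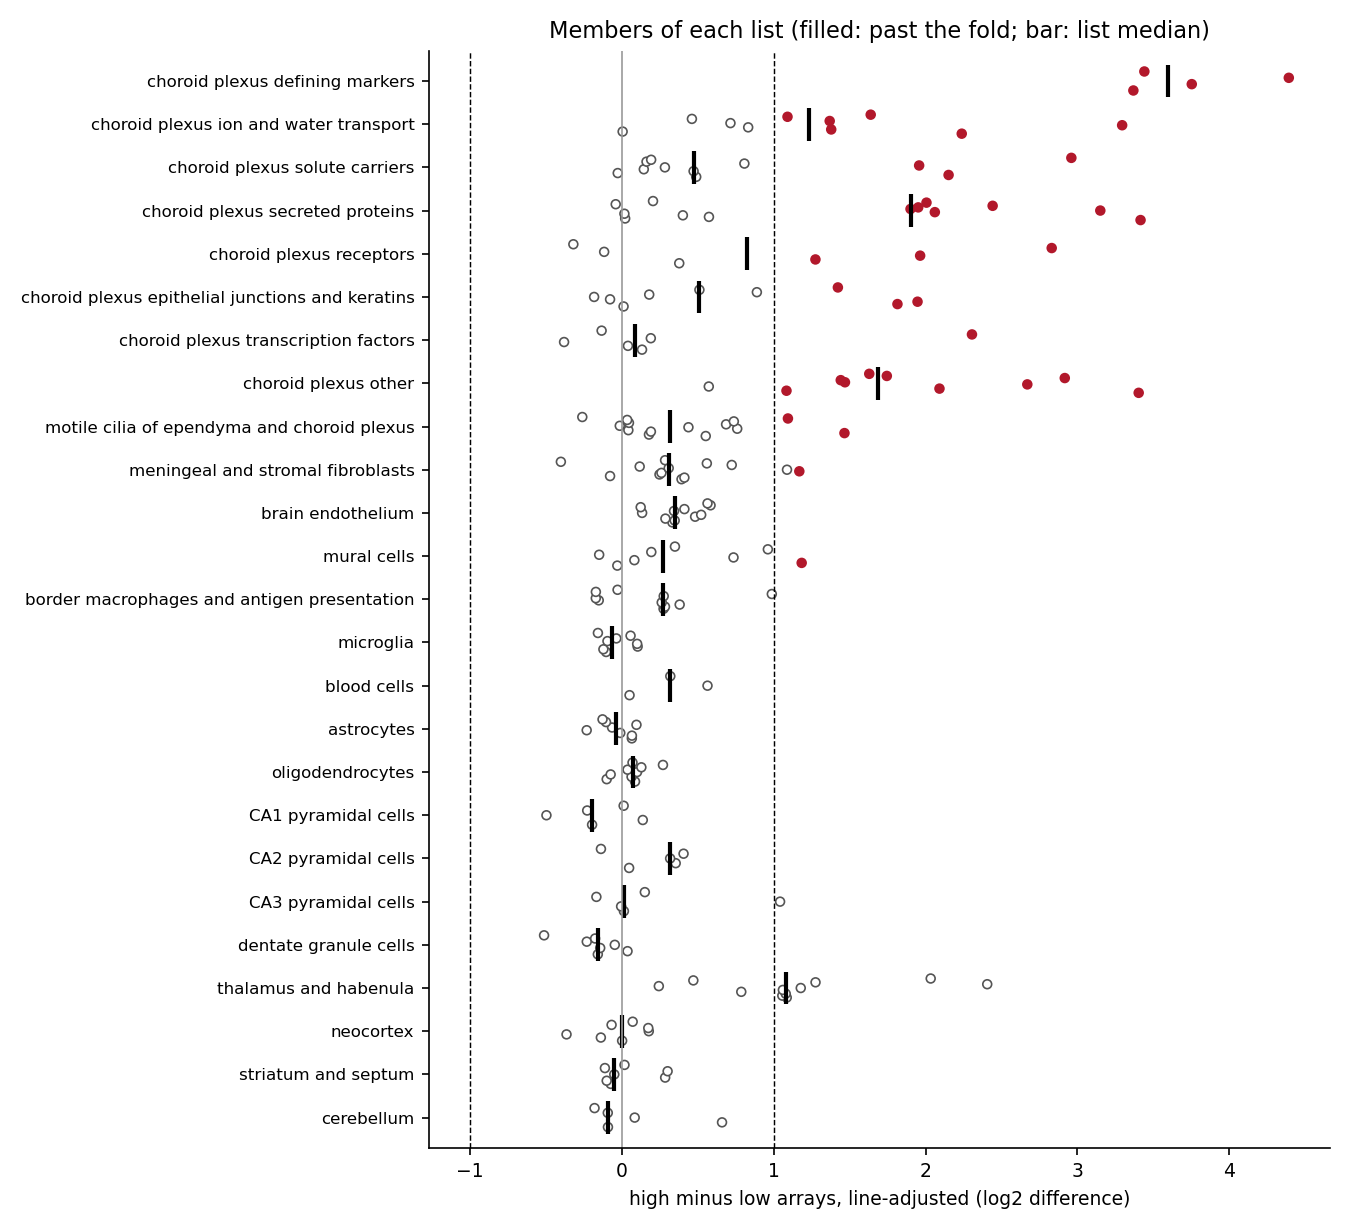
Line-adjusted log2 difference of the high minus the low arrays (horizontal axis) for every cluster of each list (rows), filled where it was past the fold, with a black bar at the list median and dashed lines at 1 and -1. The 4 markers lie between 3.37 and 4.39, the other choroid plexus lists have medians from 0.09 to 1.90, and the microglia, astrocyte and oligodendrocyte lists lie between -0.23 and 0.27.

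Stromal, vascular and immune cells of the plexus and its surroundings differed less. In the list of meningeal and stromal fibroblasts, 1 of 13 clusters was past the fold (Dcn, decorin, at 1.17) and the median was 0.31. Dcn had 9.48, 9.11 and 8.99 on the high arrays and 6.98 to 8.90 on the low arrays, and 9.71 on the array left out. Fmod, of the same list, differed by 1.09 with overlap of the classes. Acta2, the actin of smooth muscle, was the only 1 of 8 mural cell clusters past the fold, with 7.78, 7.42 and 7.66 on the high arrays and 5.63 to 6.76 on the low arrays. Of 11 endothelial clusters 0 were past the fold. All 11 differences were above 0, with a median of 0.35 and a highest value of 0.58 for Slco1a4. Border macrophages and antigen presentation had 0 of 10 past the fold and a median of 0.27, with Mrc1 the largest at 0.99. Only 3 of the 6 blood cell genes had their own cluster, and 0 of these were past the fold. The list means of the high arrays and of the low arrays overlapped for fibroblasts (0.23 to 0.59 on the high arrays, -0.29 to 0.42 on the low arrays) and not for endothelium (0.30 to 0.47 on the high arrays, -0.32 to 0.18 on the low arrays) or mural cells (0.34 to 0.47 on the high arrays, -0.31 to 0.23 on the low arrays). Their part in the differences of genes outside the lists was not tested.

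Among the lists of cells of the hippocampus itself, none had a cluster past the fold. Microglia had a median of -0.07 over 8 clusters, astrocytes -0.04 over 8 and oligodendrocytes 0.07 over 9, each with 0 past the fold. The range of the microglial list means was -0.07 to 0.07 on the high arrays and -0.14 to 0.16 on the low arrays. Gfap, the intermediate filament of astrocytes, had 8.81, 8.88 and 8.61 on the high arrays and 8.68 to 9.13 on the low arrays. Medians of -0.20, 0.32, 0.01 and -0.16 were found for CA1, CA2 and CA3 pyramidal cells and dentate granule cells, with 0 of 5, 5, 5 and 7 clusters past the fold. The differences of the CA3 list ran from -0.17 to 1.04, the highest being that of Coch. Coch had 6.38, 5.91 and 6.5 on the high arrays and 4.73 to 5.96 on the low arrays. It was not past the fold because FztDU 4 at 5.96 lay above DU6 5 at 5.91. The list means of CA2 were 0.17 to 0.22 on the high arrays and -0.19 to 0.16 on the low arrays and did not overlap. Among the dentate genes the low array FztDU 1 stood highest (list mean 0.63 above the mean of the low arrays), and Prox1, the transcription factor of granule cells, had 8.68 to 8.99 on the high arrays, against 9.51 on FztDU 1 and 8.51 to 9.30 on the other low arrays. Neocortex, striatum and septum, and cerebellum had medians of 0.00, -0.05 and -0.09.

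Thalamus and habenula, which lie next to the dissected tissue, did vary with the classes. The median of the 11 clusters of 9 genes was 1.08, similar in size to that of the choroid plexus lists, yet 0 of 11 were past the fold because the classes overlapped. Tcf7l2, a transcription factor of thalamic neurons, had 8.55, 9.98 and 10.31 on the high arrays DU6 1, DU6 5 and FztDU 5, and 9.0 on the low array FztDU 1, with 7.35 to 8.15 on the other low arrays. Shox2, a homeobox gene of the thalamus, had 2.17, 4.76 and 6.29 on the same high arrays. The low arrays had 1.77 to 2.41, except FztDU 1 with 3.74. The list mean of DU6 1 lay 0.45 above the mean of the low arrays, inside the range of -0.35 to 0.45 of the low arrays. Of the habenula genes, Pou4f1 had 4.57, 3.39 and 1.93 on DU6 1, DU6 5 and FztDU 5, against 1.76 to 2.29 on the low arrays. Tac2 had 6.36, 5.54 and 4.87 on the high arrays against 4.33 to 5.35 on the low arrays, and Gpr151 had 4.6, 4.94 and 3.61 on the high arrays against 3.0 to 3.82 on the low arrays. Of the 3 high arrays, DU6 1 was thus the highest for Pou4f1 and Tac2 and DU6 5 for Gpr151. When DU6 1 was left out, 7 of the 11 clusters were past the fold. Of all 22206 clusters, 28 differed by over 1 with overlap, and 8 of these 28 are in the thalamus and habenula list. In 19 of the 28, DU6 5 and FztDU 5 were the highest of the 9 arrays. The 28 were picked for a large difference with overlap, which favours clusters where only part of the high arrays stand highest. The count is thus partly built in, and how often the pattern holds over all clusters was not counted. The part of thalamic tissue in the differences of the clusters past the fold was not tested.

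**Figure D4:**
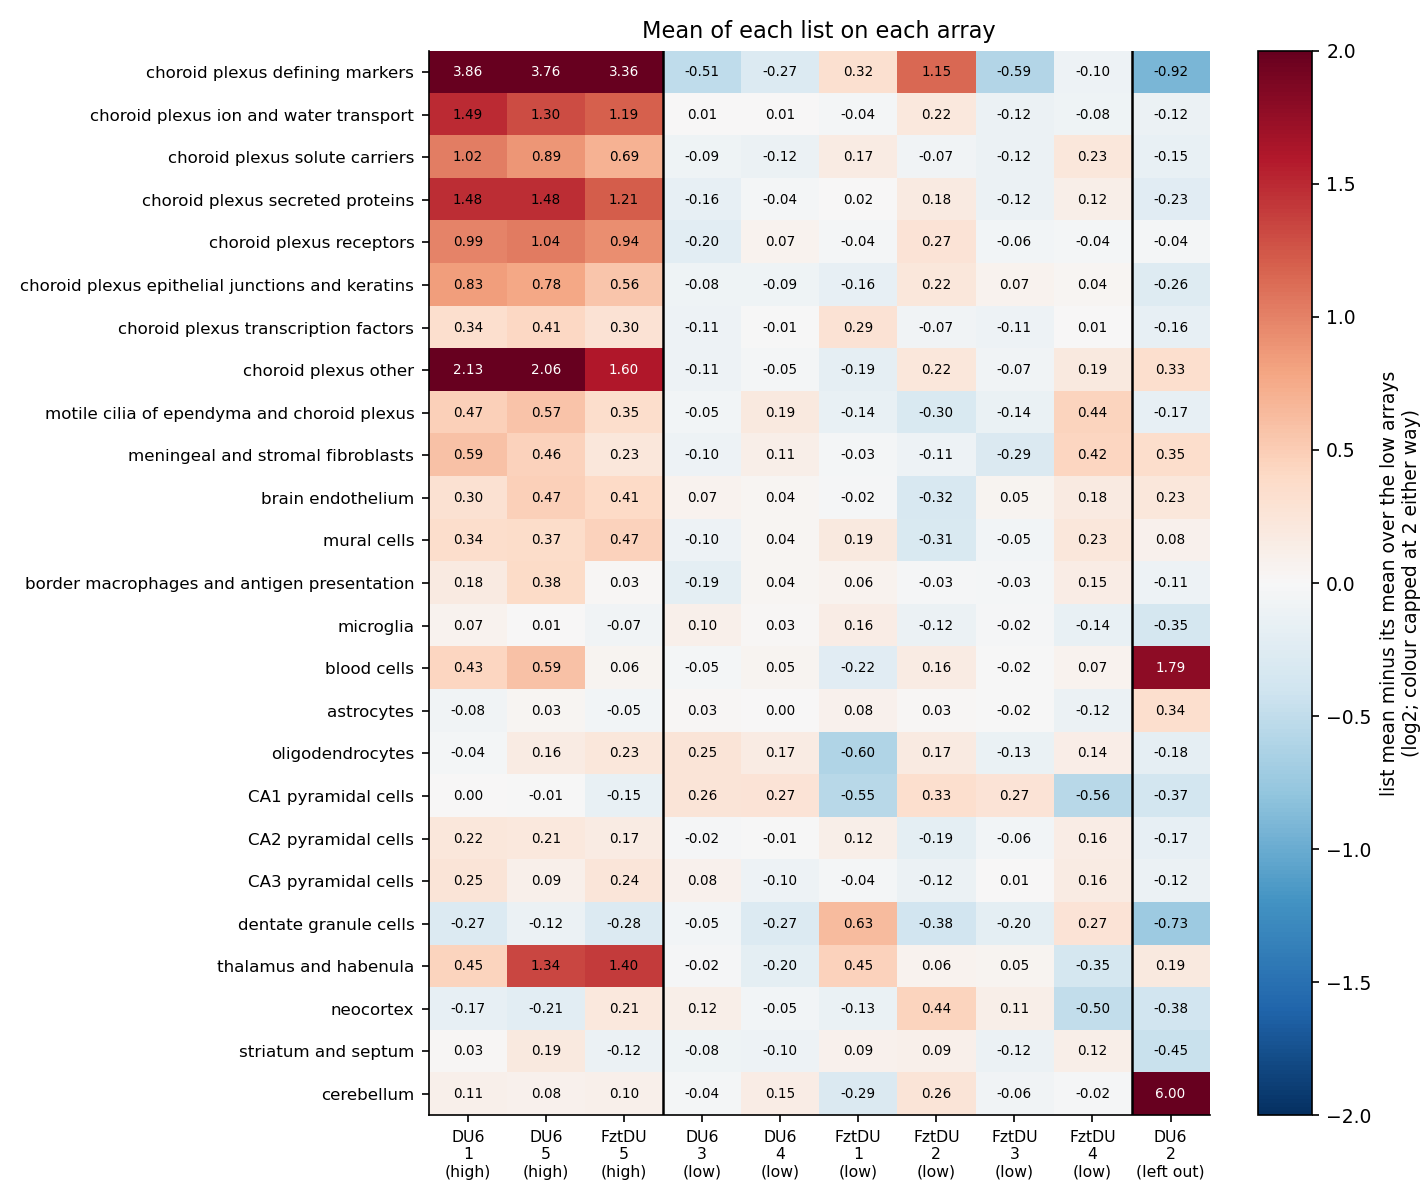
Mean log2 signal of each list (rows) on each array (columns: 3 high arrays, 6 low arrays, and the array left out, divided by black lines), minus the mean of that list over the low arrays; colour is capped at 2 either way. The choroid plexus lists are raised on all 3 high arrays (1.12 to 1.42 over all 8 lists), the thalamus and habenula list mainly on DU6 5 and FztDU 5 (1.34 and 1.40), and the cerebellum list on DU6 2 alone (6.0).

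The 3 high arrays did not carry the excess to the same degree. Over the 92 clusters, the median excess above the low arrays of the same line was 1.82 on DU6 1, 1.54 on DU6 5 and 1.33 on FztDU 5. DU6 1 was the highest of the 3 in 56 clusters and FztDU 5 the lowest in 54. FztDU 5 had the highest value in 11 clusters, among them Lepr. Among the low arrays, FztDU 2 was most often the highest (27 clusters), followed by FztDU 4 (23) and FztDU 1 (20), and FztDU 3 was the highest in 2.

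The array left out was set against both classes in these clusters. The same counts were not made over all clusters, so they give no measure of likeness to either class. In 68 of the 92, DU6 2 was at or below the highest low array, and in 13 it was the lowest of all 10 arrays. In 9 it was at or above the lowest high array. Among those 9 were Syt9, Dcn, Vat1l (8.28, against 8.01, 8.51 and 8.12 on the high arrays) and Steap2 (8.01). Its Kcnj13 of 4.91 and Folr1 of 3.09 were the lowest of the series, while its Cbln1, Cbln3, Car8, Pcp2 and Gabra6, all cerebellar genes, were between 10.12 and 11.11.

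The clusters whose pattern over the 10 arrays was most like that of Folr1, by Pearson r, were Enpp2 (0.995), Kcnj13 (0.985), Drc7 (0.983), Kl (0.983), Slc4a5 (0.982), Kcne2 (0.979), Clic6 (0.977), 1500015O10Rik (0.975), Sostdc1 (0.972) and Pon3 (0.968). Of these 10, 8 are in the choroid plexus lists, which hold 69 of all 22206 clusters. Folr1 made the classes and the lists were drawn up with results of these arrays known, so this count is a description. The arrays fall into separate classes for all 10 clusters, so the coefficients mainly describe that separation.

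Lower signals on the high arrays were small. The lowest differences among clusters with 1 named gene and no overlap were those of Oasl1 (-0.77), Fabp2 (-0.66), Wnt10b (-0.63), Tac4 (-0.62), Peli3 (-0.60), Ccdc120 (-0.59), Cib3 (-0.59), Gas1 (-0.58), Glt8d2 (-0.58) and Shf (-0.58). Oasl1, Fabp2 and Wnt10b were not called expressed in either line by the authors' table. Peli3, a ubiquitin ligase gene, had 5.47, 5.12 and 5.46 on the high arrays and 5.82 to 6.17 on the low arrays. A list of 22 genes, with 28 clusters, was drawn up for the comparison of the lines. The study's text names all of them except Map2, H2-K1, Pomt1, Il12rb2 and Esd. Of the 28 clusters, 0 were past the fold in either direction, and their median was -0.01. The largest of them was Cxcl13, a B cell attracting chemokine, at 0.74, which had 8.97 on DU6 5, 5.99 on DU6 1 and 3.37 on FztDU 5, against 3.52 to 6.37 on the low arrays. The lowest was Rnf25, a ubiquitin ligase gene, at -0.55. It had 8.06, 7.86 and 7.88 on the high arrays and 7.80 to 9.51 on the low arrays, and FztDU 5 was the only FztDU array under 8.99.

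The classes are unevenly spread over the lines, with 2 of 5 DU6 and 1 of 5 FztDU mice on high arrays, which raises the question how far they enter the comparison of DU6 with FztDU mice. This comparison rests on the labels and was tested with limma (Benjamini-Hochberg adjustment over all 22206 clusters, called at an adjusted p under 0.05 and a fold over 2).

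None of the 69 choroid plexus list clusters differed between the lines by limma at an adjusted p under 0.05, over 10 arrays (0 of 69, 0.162% of all clusters), over 9 arrays with class (0 of 69, 0.140%) or over the 6 low arrays (0 of 69, 0.0811%). At an unadjusted p under 0.05 the counts were 2 of 69 over 10 arrays, where 5.86% of all clusters passed, and 7 of 69 over 9 arrays with class, where 6.71% passed. Kcnj13 differed by -0.38 with a standard error of 0.41 (DU6 minus FztDU, adjusted p = 0.972), Folr1 by 0.25 ± 0.27 (SE, adjusted p = 0.968) and Ttr by -0.82 ± 0.48 (SE, adjusted p = 0.836) in the limma fit over 9 arrays with class. The most negative difference after Ttr was that of Lepr, at -0.74 ± 0.28 (SE), with an adjusted p of 0.669 by limma. A difference of Lepr between the lines was thus not shown, and one was not excluded.

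The line differences themselves shifted between these fits. Over 10 arrays without class, 86 of the 92 clusters past the fold had DU6 minus FztDU above 0 (50.3% of all clusters), with a median of 0.36. Over 9 arrays with class, 51 of the 92 did (51.9% of all clusters), with a median of 0.02. These clusters were picked for high values on arrays of which 2 of 3 are DU6, so the excess without class is largely built in. The standard error of the line difference was also compared with and without the class. Over the choroid plexus lists, the median standard error was 0.17 with class and 0.33 without it over the same 9 arrays, whereas over all clusters it was 0.14 with class and 0.13 without. The classes were drawn on Folr1, so a smaller error for Folr1 and for clusters that move with it is built into the division, and these values are a description.

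**Figure D5:**
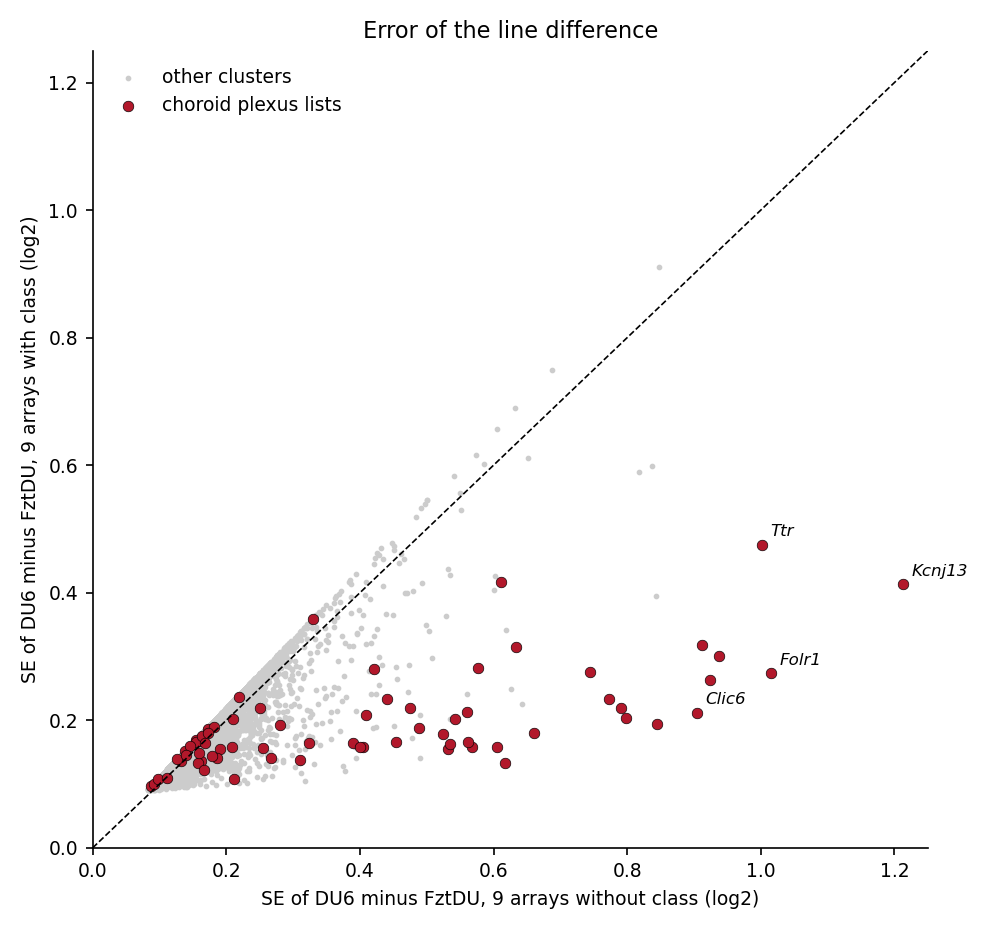
Standard error of the log2 difference DU6 minus FztDU over 9 arrays with the class as covariate (vertical axis) against the standard error without it (horizontal axis) for all clusters, choroid plexus lists in red, dashed line at equality. Most choroid plexus clusters lie below the line (list medians 0.17 with class and 0.33 without), whereas the median over all clusters was 0.14 with class and 0.13 without.

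The calls between the lines were counted with and without the class. Over 9 arrays with class, 5 clusters were called higher in DU6 mice (0.0225% of all clusters) and 20 lower (0.0901%). Over all 10 arrays without class there were 4 higher (0.0180%) and 21 lower (0.0946%), and over the 6 low arrays 2 higher (0.00901%) and 16 lower (0.0721%). The 9 arrays with class and the 10 arrays shared 22 calls. With class and without it, the same 9 arrays shared 24 calls. Of the 25 clusters called over 9 arrays with class, 0 were past the fold between high and low arrays.

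A few clusters changed their call between the 10 arrays and the 9 arrays with class. Aldh1a1, a retinaldehyde dehydrogenase gene, had 6.24, 8.39, 6.32, 6.02 and 6.44 in DU6 replicates 1 to 5 and 7.95, 7.68, 8.28, 7.89 and 8.11 in FztDU replicates 1 to 5. Only DU6 2, the array with cerebellar transcripts, lay among the FztDU values. The difference was -1.30 ± 0.36 (SE, limma adjusted p = 0.368) over 10 arrays, -1.73 ± 0.13 (SE, adjusted p = 0.00014) over 9 arrays without class, and -1.78 ± 0.14 (SE, adjusted p = 0.000286) with class. Leaving out that array thus made the call and the class did not. The cluster 4930555G01Rik was called over 10 arrays (-1.33 ± 0.22 SE, limma adjusted p = 0.0366) and lost over 9 arrays, both with class (-1.25 ± 0.26 SE, adjusted p = 0.163) and without it (adjusted p = 0.0818). Pdzd2, a PDZ domain protein gene, was called over 10 arrays (-1.01, limma adjusted p = 0.00418). It missed the fold over 9 arrays, both with class (-0.94, adjusted p = 0.0296) and without it (-0.95, adjusted p = 0.0109). Pomt1, a protein O-mannosyltransferase gene, was called over 10 arrays (1.01, limma adjusted p = 0.0294). It passed neither threshold over 9 arrays, with class (0.99, adjusted p = 0.0707) or without it (0.93, adjusted p = 0.0658).

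Gm3448 was the 1 reported gene whose call appeared only with the class. Its difference of DU6 minus FztDU was 1.17 ± 0.14 (SE, limma adjusted p = 0.00697) over 9 arrays with class, against 1.0 ± 0.20 (SE, adjusted p = 0.124) over the same arrays without it. Its high minus low difference was -0.59, the largest in size among the clusters called over 9 arrays with class. The microtubule protein gene Map2 and the histocompatibility gene H2-K1 were called higher in DU6 mice with or without class. Map2 differed by 1.37 with class and by 1.30 over 10 arrays, and H2-K1 by 1.06 and 1.17.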

How the data were processed

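RNA of 10 hippocampi (5 DU6 and 5 FztDU mice, 1 mouse per array) was measured on Clariom S Mouse arrays. According to the methods, the authors normalized the intensities by SST-RMA in the Transcriptome Analysis Console with mm10 annotation. Their deposited log2 signals, 1 per cluster and array, entered every step unchanged, with no filter on low values (array medians 5.47 to 5.52). A second deposited table gave symbols, positions and a call of expression per line. It also holds averages, fold changes and p-values of the authors' comparison, which were not used. With no counts behind the signals, precision is limited by the number of arrays. Clusters with several symbols (836) entered the counts over all clusters, and list members had to have a cluster of their own.

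The classes follow the Folr1 and Gabra6 thresholds stated above. The members, lists and thresholds were chosen with earlier results of these data known. High minus low is the class coefficient of limma's lmFit with line as covariate over 9 arrays, without a test because a measured value chose the classes. Past the fold means an absolute log2 difference over 1 and no overlap. DU6 minus FztDU was tested with limma 3.58.1 under R 4.3.3, as a moderated two-sided test with the class as covariate and Benjamini-Hochberg adjustment, after a test on simulated data. Each array is a separate mouse, so p-values measure the spread between mice.

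Genes named are the 4 markers and up to 5 members of each choroid plexus list by size of difference. For each other list up to 3 were planned, but several of these lists have no member named. Also named are the 15 highest and 10 lowest clusters with 1 symbol and genes of the list for the comparison of the lines. Clusters whose line call differed and the 10 clusters most like Folr1 are named as well. Further genes were named after their values were seen. Results of 1 gene are not reported here. Alternatives tried were no line covariate, quantile normalization, median centring, DU6 2 among the low arrays, classes by other markers, a filter on low values, a replicate block, other thresholds, array weights, eBayes with trend and robust, a marker covariate, other sets of arrays and each array left out. Figures were drawn with matplotlib 3.10.9.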

Additional observations from a re-analysis of the deposited data

Results flagged for a closer look

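Within the 5 arrays of each line, 36 groups of values of the leading clusters, of 2 list means and of Gabra6 were searched for a single array far from the rest, and 6 had one. The leading clusters were picked for their gap between the classes, and DU6 2 was left out by its Gabra6, so these outcomes were largely built in. The rate of about 1 in 20 by which groups would be picked by chance therefore does not apply. The 6 are also not independent, since 5 of them are the same array. FztDU replicate 5 stood apart in Clic6 (9.15, the other FztDU arrays 5.69 to 6.68), F5 (7.19, the others 3.66 to 4.37), Steap1 (6.09, the others 3.09 to 3.83), Otx2 (7.01, the others 4.61 to 5.08) and the mean of the choroid plexus lists (6.86, the others 5.64 to 5.94). FztDU 5 is the only high array of its line. In DU6 mice the same genes did not single out an array, and 2 of the 5 DU6 arrays were high. DU6 replicate 2 stood apart in Gabra6 (11.11, the other DU6 arrays 2.24 to 2.72), the value for which it was left out.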

How the results depend on the processing

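The count of 92 clusters past the fold stayed between 80 and 107 without the line covariate, with quantile normalization or median centring, with DU6 2 among the low arrays, with the filter on low values, with the replicate number as a block and with the classes of Kcnj13 or Clic6, and between 87 and 115 when each array was left out. With the 5 high arrays of the widest Ttr gap it was 10, of which 7 were in the choroid plexus lists (36 with the Folr1 classes). At a difference over 0.5 it was 248 higher and 24 lower, and the replicate block gave 2 lower in place of 0. The thalamus and habenula list had 0 past the fold, 1 with the Ttr gap, and 0 to 7 when each array was left out (7 without DU6 1, 2 without FztDU 1 or FztDU 5). Of 270 values of the 15 highest clusters under these alternatives, 2 moved by over 1.5 times, both with the Ttr gap. Between the lines, 5 higher and 20 lower calls became 2 higher with the 6 low arrays. They were 2 to 7 higher and 14 to 26 lower with each array left out (3 higher without DU6 3, 2 higher without FztDU 5), and the choroid plexus lists had 0 in every fit. The labels give no shared source to arrays of the same replicate number, and the numbers were not used to pair them: 3 of 5 same-numbered pairs had correlated deviations (r over 0.1, mean 0.10, against -0.03 for other pairs) and 2 of 5 DU6 arrays were closest to their own number. With the replicate block the line calls were 4 higher and 6 lower. The cause of these changes was not tested.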
